A study of Mus musculus with 24 samples.

Results

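The 11 T cell deficient lymphomas of this mouse RNA-seq series were described against each other: which genes and gene groups differed most from lymphoma to lymphoma, and which moved together. They are all the samples labelled T cell deficient, 11 of 24 samples in all. Each library holds RNA of B lymphoma cells purified from a C57BL/6 spleen, and the genotype is Bcl6Tg/+CD3Epsilon-/-, which pairs a Bcl6 transgene with loss of the CD3 epsilon chain of the T cell receptor complex. Lymphomas 7 to 11 were sequenced in run 1 and lymphomas 1 to 6 in run 2. The reference group is 12 T cell sufficient lymphomas (Bcl6Tg/+, same strain and tissue), 7 in run 1 and 5 in run 2, and the remaining sample, a repeat library of T cell sufficient lymphoma 1, was not analysed here. The sources used here do not name the transgene's promoter, the age or sex of the mice or the method of purification. Each T cell deficient lymphoma has 1 library, so differences between tumours and between preparations of a tumour cannot be told apart.

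BCL6 is a transcriptional repressor of the germinal centre, the site in lymphoid follicles where B cells divide, mutate their antibody genes and are selected before they leave as memory or plasma cells. Lymphomas that arise in different mice are separate clones, and tumours of the same genotype can resemble different B cell stages and carry different acquired genetic changes.

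Library totals, in units of 1e+06 counts, were 11.8 to 28.1 (median 21.6) for the 11 lymphomas and 7.58 to 30.6 for the reference group. In the 11 libraries 3 counts were worth 0.102 to 0.248 CPM (counts per 1e+06 counts of the library), the unit used for all levels here, which limits how low a level can be told from 0 and covers counting error only. All levels are per library and not per gene length, so only the same gene is compared between lymphomas. The B cell gene Cd79a, a chain of the B cell receptor complex, was high throughout and ranged from 572 to 1146 CPM (median 864). Bcl6 ranged from 366 to 983 CPM (median 622), transgene and native gene counted together. Cd3e, the gene behind the CD3 epsilon label, was counted in every one of the 11 libraries, from 0.721 to 5.77 CPM (median 1.82), and since the deleted stretch is not given here this transcript does not check the genotype. Tnfsf9, the CD137 ligand of the study's title, ranged from 83.4 to 157 CPM (median 104). Each of the 55 pairs of libraries differed by far more than sampling noise (lowest chi-square 31.1 per degree of freedom).

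To describe the differences, the mean of its run was subtracted from each gene's log2 CPM, and the standard deviation (SD) of what remained was taken over the 11 lymphomas. Among 9754 genes averaging at least 5 CPM, the median SD was 0.310 on the log2 scale, against 0.355 for the same genes in the T cell sufficient lymphomas. An SD over 1 was reached by 952 genes (9.76%) and an SD over 2 by 231. Expression was close to all-or-none for 389 genes, which stood at 20 CPM or more in at least 1 of the 11 lymphomas and at 1 CPM or less in another. The T cell sufficient lymphomas had 508 such genes, and 147 were shared, which is 37.8% of the first set and 28.9% of the second. For scale, 11140 genes were listed in all, and whether the overlap exceeds chance was not tested. A rule on the highest and lowest library also depends on the number and depth of libraries. The reference group has 12 libraries against 11, and 3 counts were worth up to 0.405 CPM there against 0.248 CPM. The 2 counts of genes are therefore not read as a difference between the groups.

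Among the 11 lymphomas no single axis held most of the variance. The first 3 principal components of the run-centred values carried 29.1%, 21.9% and 19.1% of it, and the fourth 10.3%. Lymphoma 6 stood at one end of the first component and at the far end of the second, lymphomas 3 and 8 lay together at the other end of the second, and lymphoma 9 lay alone at the end of the third. The genes that weighed most towards lymphoma 6 and lymphoma 8 on the first component included Pard3, a cell polarity gene, and Klhl14, and those at the opposite end included Ackr2, a decoy receptor for chemokines, and Sdc4, a cell surface proteoglycan. Sox5, a transcription factor of the SOX family, and Tnfrsf19, a TNF receptor family member, were among the 6 genes that weighed most against lymphomas 3 and 8 on the second. Correlating the run-centred values of each pair across the 9754 genes, which are not independent replicates, gave r = 0.638 for lymphomas 1 and 2, 0.626 for 2 and 10, 0.592 for 3 and 8 and 0.432 for 1 and 10. Lymphoma 10 was sequenced in the other run from 1 and 2, and lymphomas 3 and 8 also came from different runs. The most opposed pair was 9 and 11 (r = -0.607); within a run, removing the run mean by itself pushes pairs apart, so negative values within a run are not read further.

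**Figure D1:**
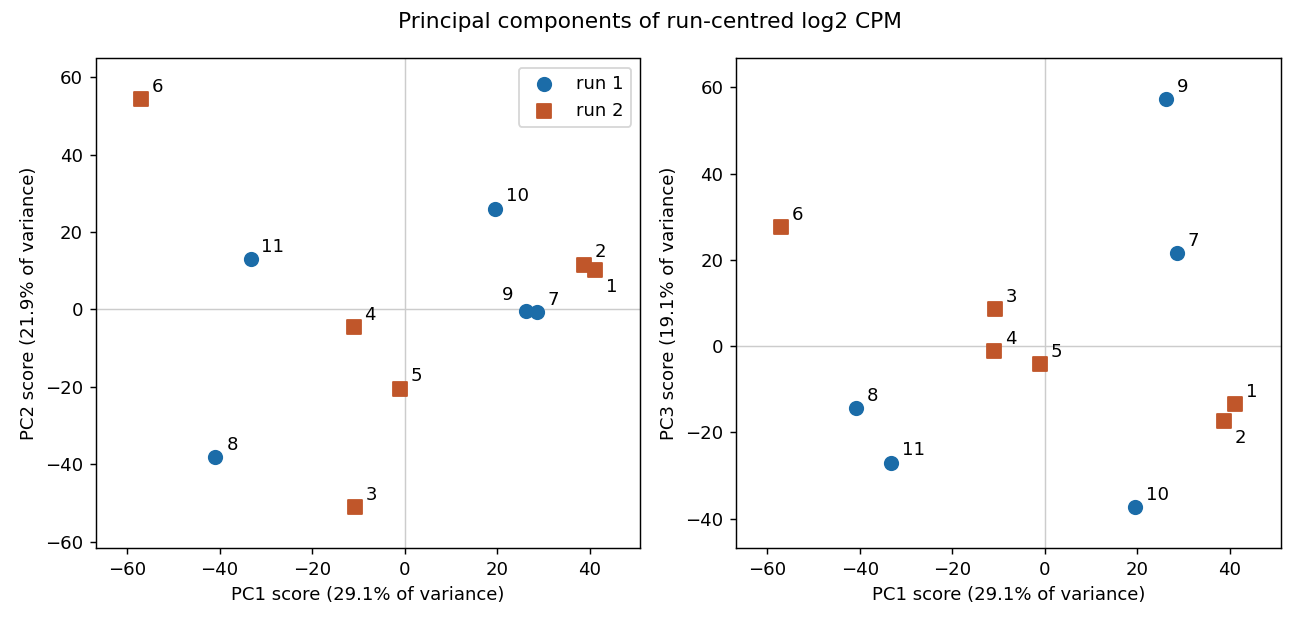
Scores of the 11 T cell deficient lymphomas on principal components 1 and 2 (left) and 1 and 3 (right) of run-centred log2 CPM; each point is 1 lymphoma, numbered, with circles for run 1 and squares for run 2. Lymphomas 1, 2 and 10 lie on the same side of components 1 and 2, lymphomas 3 and 8 at the low end of component 2, and lymphomas 6 and 9 apart from the rest.

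The most variable gene was Xist, the RNA that silences an X chromosome in female cells, with an SD of 4.79. Its level was 3.39, 0.992, 1.46, 250.4 and 1.19 CPM in lymphomas 7 to 11 (run 1) and 0.248, 1056, 0.282, 0.26, 779 and 0.568 CPM in lymphomas 1 to 6 (run 2). Only lymphomas 2, 5 and 10 were above 100 CPM. The Y-linked transcripts Eif2s3y, Ddx3y, Kdm5d and Uty, ranks 2, 4, 5 and 6 by SD, were the mirror image: all 4 were above 20 CPM in the other 8 lymphomas, and Ddx3y, for example, stood at 1.85, 0.735 and 0 CPM in lymphomas 2, 5 and 10. No lymphoma had Xist above 100 CPM together with the 4 Y-linked transcripts above 20 CPM. Lymphoma 7 combined Y-linked transcripts with 3.39 CPM of Xist. These 5 genes are listed apart from the others because they follow the sex chromosomes.

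After the sex-linked transcripts the largest SDs belonged to genes that were switched on in some lymphomas and silent in others. Sox5 (rank 3, SD 4.01, chr6:143828425-144781977 on GRCm38, minus strand) read 9.12, 0, 0.11, 44.6 and 0.422 CPM in lymphomas 7 to 11 (run 1) and 99.1, 59.3, 0.047, 0.563, 0.654 and 97.3 CPM in lymphomas 1 to 6 (run 2). Lymphomas 1, 2, 6 and 10 were high, lymphoma 7 intermediate and the other 6 at or near background. Tmem154, a membrane protein gene, was 70.03, 0.661, 3.03, 57.1 and 0.949 CPM in lymphomas 7 to 11 (run 1) and 133, 63.4, 1.69, 2.77, 0.409 and 0 CPM in lymphomas 1 to 6 (run 2), so that lymphomas 1, 2, 7 and 10 were high and lymphoma 6 had no count. Sdc4 was also high in these 4 and, unlike Tmem154, in lymphoma 9, with 53.3, 52.8, 34.8, 60.1 and 55 CPM in lymphomas 1, 2, 7, 9 and 10 and at most 2.34 CPM elsewhere. Pard3 was the reverse, at 293 CPM in lymphoma 6, 38.3 in lymphoma 11 and 37.4 in lymphoma 3 and from 0.0365 to 13.6 CPM in the rest. Tnfrsf19 reached 215 and 203 CPM in lymphomas 6 and 11, and Ppp2r2c, a regulatory subunit of protein phosphatase 2A, 142, 83.5 and 28.6 CPM in lymphomas 10, 2 and 1. Tox, a nuclear factor known from T cell development, was 85 CPM in lymphoma 9 and 0 in lymphoma 5. Mgmt, which repairs alkylated DNA, ran from 0 in lymphoma 8 to 164 CPM in lymphoma 6, and Fam174b from 0 in lymphoma 5 to 149.6 CPM in lymphoma 7. The remaining members of the 25 genes of largest SD were Fras1, Gpr174, Xlr4a, Xlr4b, Sytl3, Cnn3, 4930500J02Rik, Faxc, Ackr2, Emid1 and Enah, with SDs from 3.21 to 3.47. The gene just inside this limit, Enah, had an SD of 3.21 and the next, Rnf180, 3.20. Several of them also switched among the T cell sufficient lymphomas, such as Fam174b with an SD of 3.34 there, while Ppp2r2c (0.890), Tmem154 (1.09) and Sdc4 (1.20) varied less.

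**Figure D2:**
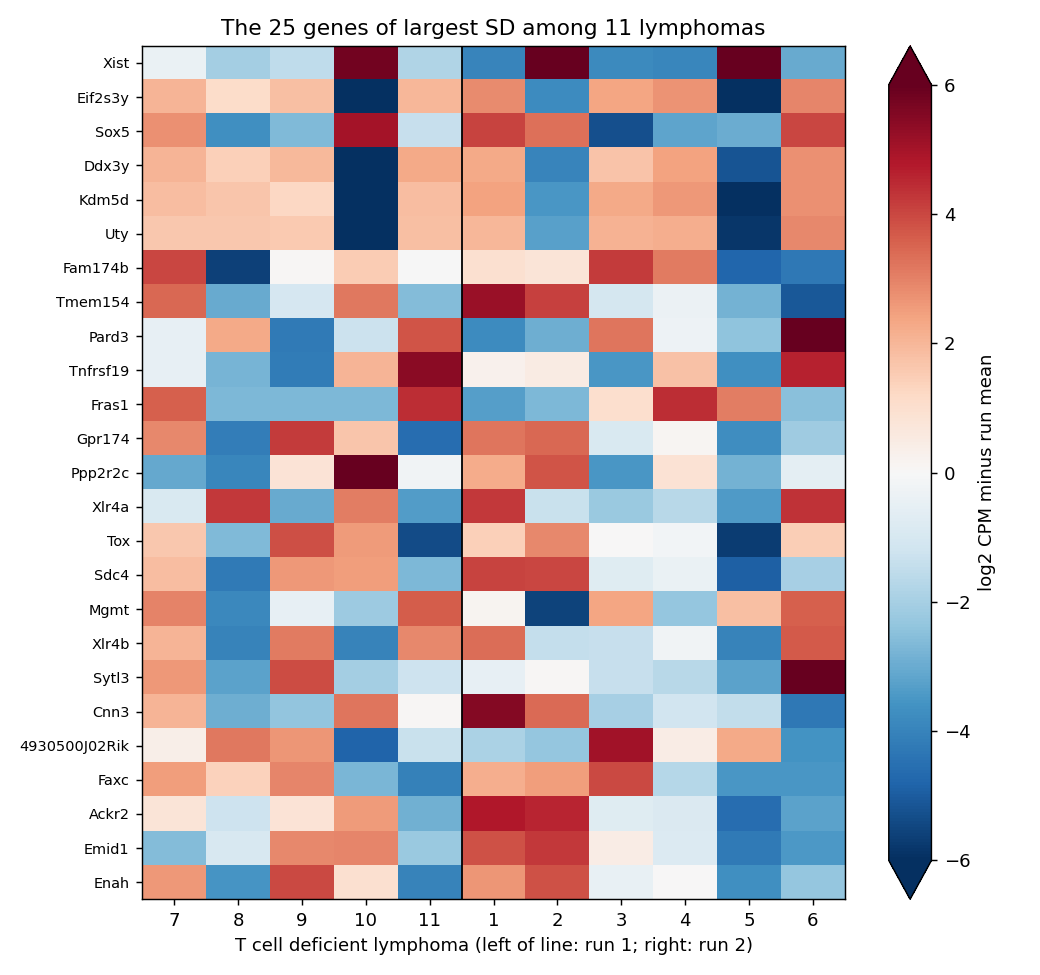
Run-centred log2 CPM (colour) of the 25 genes of largest SD (rows, largest at the top) in the 11 T cell deficient lymphomas (columns; the line parts run 1 from run 2). Xist is high in lymphomas 2, 5 and 10, where the 4 Y-linked rows are low, and Tmem154, Sdc4 and Ackr2 are high in lymphomas 1, 2 and 10 and low in lymphoma 6 or 5.

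The 300 genes of largest SD were clustered by the correlation of their run-centred values into 6 groups, a number that was set and not found. The groups held 115, 93, 47, 27, 14 and 4 genes. The group of 115, which holds Tmem154, Sdc4, Ackr2 and Cd36, averaged 1.96 and 1.85 above the run mean in lymphomas 1 and 2 (log2) and 3.36 below it in lymphoma 6 (mean -3.36). The group of 93, with Pard3, Plk2 and Klhl14, was at 1.85, 1.75 and 1.54 in lymphomas 8, 11 and 3 and at -1.93, -1.90, -1.45 and -1.42 in lymphomas 10, 2, 1 and 9. The group of 47, led by Sox5, Tnfrsf19 and Ppp2r2c, was at -3.18 and -2.36 in lymphomas 3 and 8 and at 2.14 in lymphoma 10. In the 27 genes led by 4930500J02Rik the means were 2.94 in lymphoma 3 and -2.74 in lymphoma 6. These groups describe the same values that formed them and carry no test.

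By the median over a whole chromosome, genes of 3 chromosomes shifted as blocks in 4 lymphomas. The shift is the median of the run-centred log2 CPM over the genes of a chromosome that averaged at least 5 CPM. On chromosome 13 (357 genes) it was 0.42 in lymphoma 3 and 0.37 in lymphoma 8. On chromosome 15 (386 genes) it was 0.34 in lymphoma 3, 0.38 in lymphoma 5 and 0.56 in lymphoma 8. On chromosome X (303 genes) it was 0.76 in lymphoma 3, 0.50 in lymphoma 8 and 0.43 in lymphoma 9. In these 8 cases 82.5% to 94.4% of the genes lay above the mean of their run. The shifts ran from end to end: in consecutive stretches of 60 genes, the lowest stretch of chromosome 15 in lymphoma 8 was at 0.51 and the highest at 0.63, and in lymphoma 3 chromosome X ran from 0.69 to 0.86. On the other 17 chromosomes the median of every one of the 11 lymphomas lay between -0.10 and 0.14. A median can miss a shift of part of a chromosome, and stretches of these 17 were not read. On chromosome 18 in lymphoma 11, for example, the lower quartile was -0.54 beside a median of -0.08. Because a run mean includes the shifted lymphomas, the other lymphomas of a run fall below 0 on the same chromosome, to -0.36 for chromosome X in lymphoma 7. Measured over 20 chromosomes and 11 lymphomas, a median at least 0.3 from 0 was found in 10 of 220 cases, and in the T cell sufficient lymphomas in 11 of 240. In the reference group such medians fell on chromosomes 3, 6, 12, 14, 15, 18 and X.

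Genes of chromosomes 13, 15 and X made up 13.2% of the 10% of genes with the largest SD and 10.8% of all genes placed, so most of the strongly variable genes lay elsewhere. Without these chromosomes, a check added after the data were seen, the first 3 components carried 29.8%, 20.8% and 19.7% and lymphomas 3 and 8 still correlated at r = 0.552 across genes. Myc, a growth regulator, lies on chromosome 15 (chr15:61985391-61990374), and its level was 280.1, 279, 241, 205 and 258 CPM in lymphomas 7 to 11 (run 1) and 190.2, 210.3, 251, 282, 273 and 108 CPM in lymphomas 1 to 6 (run 2). Lymphomas 3, 5 and 8 were among the 6 highest for Myc, but lymphomas 4 and 7, which had no such shift of chromosome 15, were the 2 highest. DNA copy number was not measured, so gain of a chromosome and higher transcription from it cannot be told apart here.

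**Figure D3:**
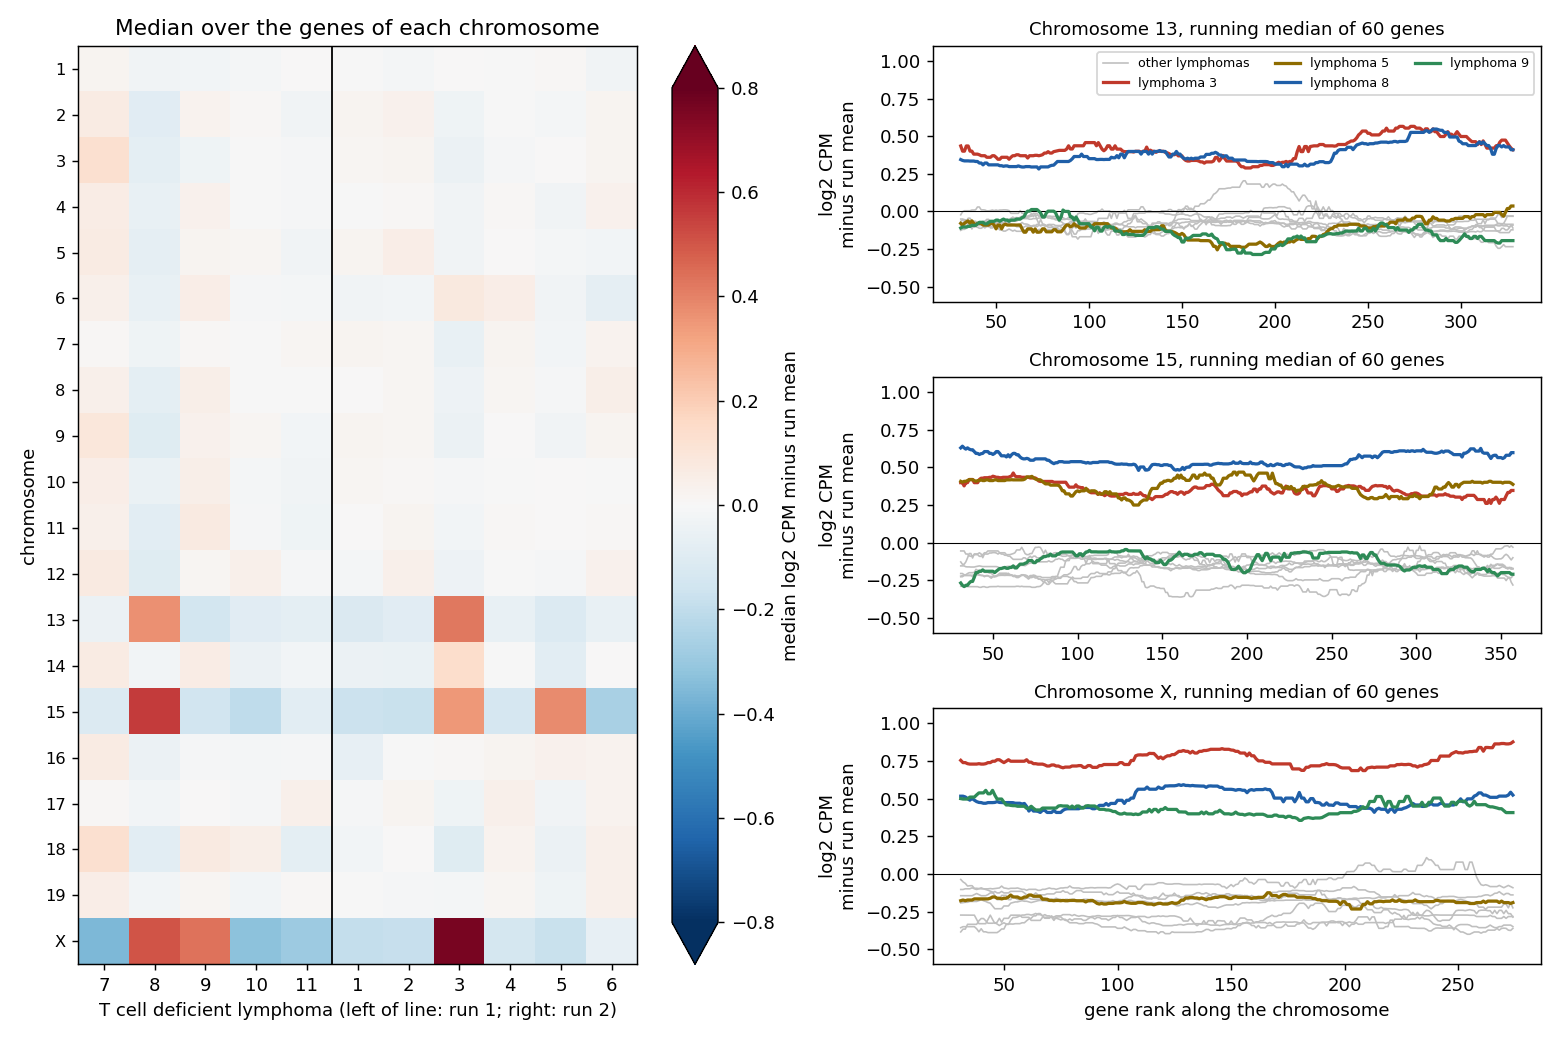
Left, median run-centred log2 CPM (colour) over the genes of each chromosome (rows) in each T cell deficient lymphoma (columns); right, running medians of 60 genes ordered along chromosomes 13, 15 and X, with lymphomas 3, 5, 8 and 9 coloured and the other 7 in grey. The raised lines stay above 0 along the whole of each chromosome.

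Interferon response genes varied widely from lymphoma to lymphoma. Type I interferons signal to a promoter element, the interferon-stimulated response element, and induce antiviral genes such as the Oas, Mx and Ifit families, while IRF7 is itself induced and in turn drives interferon production. Of 24 measured members of the type I interferon list averaging at least 5 CPM, 16 were among the 976 genes of largest SD (the top 10% by definition), with a median SD of 1.20 against 0.310 over all genes and 0.914 for the same members in the T cell sufficient lymphomas. Without lymphoma 9 the count was 10 of 24. Irf7 (chr7:141262706-141266481, minus strand) was 148, 519, 41.2, 81.9 and 213 CPM in lymphomas 7 to 11 (run 1) and 88.9, 137, 198, 117, 104 and 115 CPM in lymphomas 1 to 6 (run 2), which is a range of 12.6-fold. Lymphoma 8 was highest, lymphoma 9 lowest, and lymphoma 3 led run 2.

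The run-centred Irf7 level was then used as a continuous term to find genes that rose or fell with it among the 11 lymphomas. Of 11054 genes tested, 23 rose (0.208%) and 1 fell (0.00905%) with the quasi-likelihood test of edgeR (Benjamini-Hochberg adjusted p under 0.05, adjusted over all genes of a term). At an unadjusted p under 0.05 the counts were 677 and 482. The smallest p belonged to Ifit2, an antiviral RNA-binding protein, at 13.7, 52.1, 5.26, 5.76 and 15.6 CPM in lymphomas 7 to 11 (run 1) and 7.55, 18.4, 22.6, 12.6, 13.4 and 15.6 CPM in lymphomas 1 to 6 (run 2). Lymphoma 8 was the highest and lymphoma 9 the lowest. Its log2 level rose by 0.95 ± 0.10 (SE) per unit of log2 Irf7 (edgeR adjusted p = 0.0224). Ifit3 rose by 1.37 ± 0.17 and Mx2 by 1.09 ± 0.14 (edgeR adjusted p = 0.0224 for both), as did Slfn8, a Schlafen family gene, by 1.05 ± 0.14, Mx1, a dynamin-like antiviral GTPase, by 1.09 ± 0.14, and Eif2ak2, the double-stranded RNA sensor PKR, by 0.47 ± 0.06. The others included the RNA sensor Dhx58, Ly6a, Parp9, Slfn5 and Gnb4, a G protein subunit, which had the steepest slope (1.85 ± 0.27, edgeR adjusted p = 0.0259). The 23 genes included 8 members of the type I interferon list, among them Ifit2, Ifit3, Mx1, Mx2, Oas1a, Trim30a and Xaf1. Of the list's 24 members tested, 22 had a positive slope, with a median of 0.79 against -0.01 over all genes. All 23 were lowest in lymphoma 9, 21 were highest in lymphoma 8, and 20 were highest of run 2 in lymphoma 3. Irf7, by which the 23 were selected, has the same extremes, so these counts are no separate result. The gene that fell was Prlr, the prolactin receptor, at 26.3 CPM in lymphoma 9 and at most 1.86 CPM in any other.

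These calls rested on few lymphomas. None of the 24 passed when lymphoma 3, 4 or 8 was left out, and 1 gene passed without lymphoma 9. Without lymphomas 1 or 11, 12 genes passed, and without lymphoma 10, 47. All 24 kept their direction in each of these fits. When p-values were adjusted over the 7 continuous terms together, only Ifit2 passed (edgeR adjusted p = 0.0457). Limma-voom called 24 genes, 20 of them the same, and DESeq2 called 306, the 24 among them.

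The promoters of genes that rose with Irf7 were read for the core of the interferon-stimulated response element, a GAAA repeated with any 2 bases between (on either strand, overlaps allowed), in the 250 bases before each RefSeq start (GRCm38.p6). Of the 23 genes 15 had an entry and 6 of these (40%) held the core, against 284 of 8551 matched genes of the count table (3.32%) and 936 of all 27025 genes of the promoter table (3.46%). Of the type I interferon list, 9 of 17 genes with an entry held it (52.9%). A match is a description of the letters and does not show a bound site. The promoters of 3 of the 6 follow, chosen to set the element beside RNAs whose highest level was 17.9-fold to 67.6-fold their lowest, 5′ to 3′ with the matches in capitals (overlapping matches in Oas1a run together).
Ifit3 (chr19:34583279-34583528, plus strand): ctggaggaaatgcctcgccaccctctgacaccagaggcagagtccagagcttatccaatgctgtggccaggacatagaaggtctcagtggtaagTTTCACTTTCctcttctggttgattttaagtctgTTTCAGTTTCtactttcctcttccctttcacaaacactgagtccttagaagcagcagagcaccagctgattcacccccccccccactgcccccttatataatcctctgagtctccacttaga
Oas1a (chr5:120907526-120907775, minus strand): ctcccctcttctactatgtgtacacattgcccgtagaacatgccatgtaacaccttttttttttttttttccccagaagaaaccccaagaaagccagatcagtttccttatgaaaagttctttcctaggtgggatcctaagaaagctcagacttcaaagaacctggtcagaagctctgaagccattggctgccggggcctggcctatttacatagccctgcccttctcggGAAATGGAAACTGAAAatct
Slfn8 (chr11:83020811-83021060, minus strand): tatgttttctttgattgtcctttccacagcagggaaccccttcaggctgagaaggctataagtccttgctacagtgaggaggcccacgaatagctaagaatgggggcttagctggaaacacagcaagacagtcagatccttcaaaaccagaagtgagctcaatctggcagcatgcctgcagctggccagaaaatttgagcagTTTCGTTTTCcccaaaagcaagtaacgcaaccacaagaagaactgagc

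The RNAs behind these promoters shared the extremes of Irf7. They were selected for rising with Irf7, so this order is no separate result. Ifit3 was 13.9, 62.1, 2.23, 9.65 and 25.2 CPM in lymphomas 7 to 11 (run 1) and 8.05, 24.3, 42.3, 9.36, 8.42 and 9.31 CPM in lymphomas 1 to 6 (run 2). Oas1a, which makes the 2-5A signal of the antiviral RNase L pathway, was 28.5, 121, 1.79, 17.4 and 46.4 CPM in lymphomas 7 to 11 (run 1) and 7.24, 20.9, 22, 8.97, 7.93 and 18.3 CPM in lymphomas 1 to 6 (run 2). Slfn8 was 15.1, 69.9, 3.91, 9.79 and 11.3 CPM in lymphomas 7 to 11 (run 1) and 12.7, 25.7, 25.8, 20.2, 9.89 and 18.7 CPM in lymphomas 1 to 6 (run 2). For all 3, lymphoma 8 was highest and lymphoma 9 lowest, and lymphoma 3 led run 2, by little over lymphoma 2 for Oas1a and Slfn8.

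Not every interferon gene shared those extremes. Lymphoma 9 was the lowest of run 1 for 17 of the 24 members, among them Oas3 (3.07 CPM against 227 in lymphoma 8) and Usp18 (4.34 against 264), a protease that removes ISG15. It was above all 6 lymphomas of run 2 for 6 members: Isg15, Ifit1, Oasl1, Rsad2, Ifih1 and Bst2. That comparison crosses runs with run means kept, so a difference between runs cannot be told apart from a trait of lymphoma 9. Isg15, a ubiquitin-like protein, was 256, 92.8, 178, 29 and 24.6 CPM in lymphomas 7 to 11 (run 1) and 12.4, 42.4, 25.9, 11.8, 9.15 and 12.4 CPM in lymphomas 1 to 6 (run 2). Oasl1 was 192, 95.5, 219, 21.9 and 9.91 CPM in lymphomas 7 to 11 (run 1) and 11.9, 24, 24.3, 14, 10.4 and 27.7 CPM in lymphomas 1 to 6 (run 2). Within run 1 both were high in lymphomas 7, 8 and 9. In run 2, every one of the 24 members lay above the run mean in lymphomas 2 and 3, and none did in lymphoma 5. Interferon gamma genes varied less. Of 18 members averaging at least 5 CPM (21 measured), 1, Gbp7, was in the top 10% by SD, and their median SD was 0.611. Of 20 members tested, 1 rose with Irf7. None of the 20 macrophage markers rose with Irf7, and 17 of them had a negative slope (median -0.43). With Lyz2 as the term, 24 of 25 type I interferon genes had a positive slope (median 0.17) and 1 was past an unadjusted p of 0.05, beside 19 of 19 macrophage markers (median 0.27), and none of either list passed adjustment in edgeR. The part of macrophages in the interferon values was not tested.

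**Figure D4:**
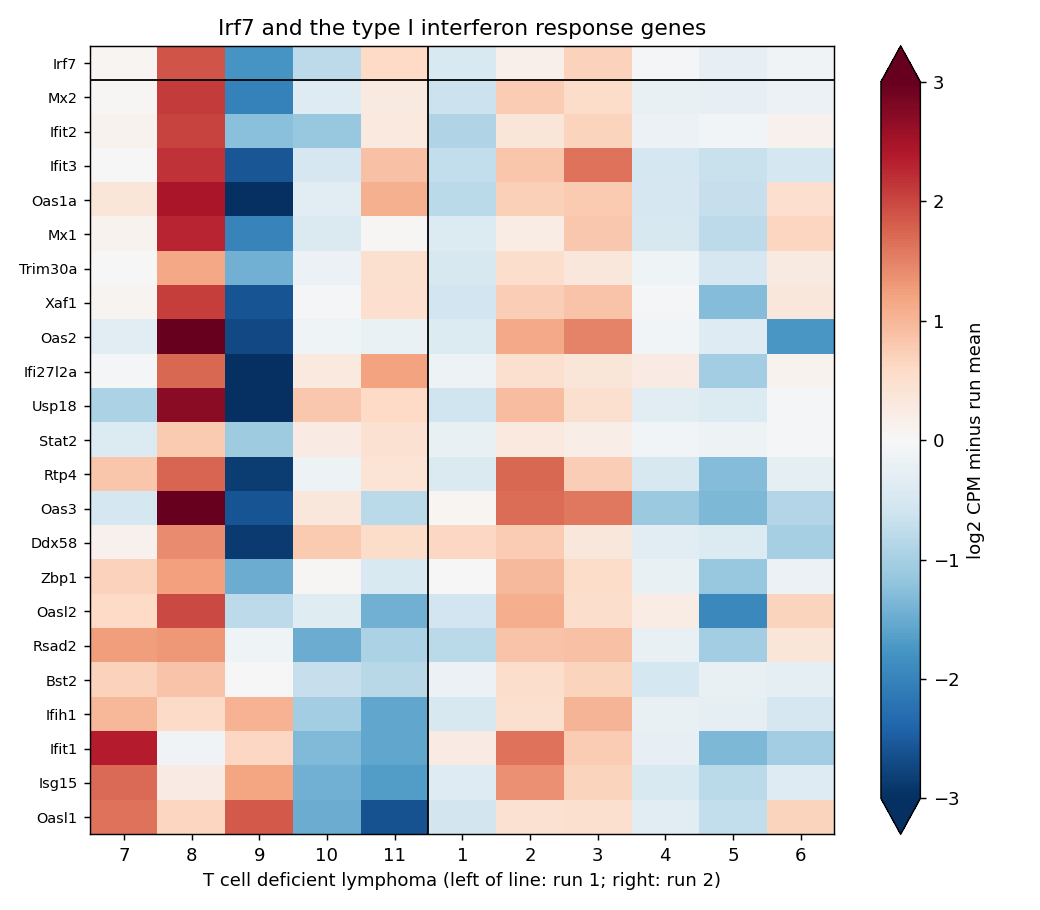
Run-centred log2 CPM (colour) of Irf7 (top row) and 22 other members of the type I interferon list averaging at least 5 CPM, ordered by their correlation with Irf7, in the 11 T cell deficient lymphomas (columns). Upper rows are high in lymphoma 8 and low in lymphoma 9, and the bottom rows, such as Isg15 and Oasl1, are high in lymphomas 7 and 9.

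The plasma cell regulators Prdm1 and Xbp1 and 17 of 18 amino acid stress genes were highest in lymphoma 9. Amino acid shortage and endoplasmic reticulum stress act through ATF4 to raise genes for amino acid uptake and synthesis, and plasma cells, which secrete antibody, depend on the regulators BLIMP1 (Prdm1) and XBP1. Prdm1 (chr10:44437177-44528501) was 42.5, 2.48, 331, 7.33 and 5.83 CPM in lymphomas 7 to 11 (run 1) and 19.4, 8.43, 13.8, 23.2, 20.1 and 13.6 CPM in lymphomas 1 to 6 (run 2). Lymphoma 9 exceeded the next, lymphoma 7, by a wide gap. Xbp1 was also highest in lymphomas 9 and 7, 598 and 324 CPM, with the other 9 at 87.3 to 162 CPM. Slpi, a secreted protease inhibitor, reached 48.6 CPM there and Hsp90b1, an endoplasmic reticulum chaperone, 2552 and 1570.5 CPM in lymphomas 7 and 9. Sdc1, the plasma cell surface marker CD138, was 17.2 and 15.8 CPM in these 2 lymphomas and at most 10.3 CPM elsewhere, and the J chain gene (Igj) was abundant in all 11, from 517 to 2622 CPM (median 1534). Of 17 plasma cell genes at the level limit, 2, Prdm1 and Slpi, were in the top 10% by SD, and 9 were highest of run 1 in lymphoma 9.

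All 18 amino acid stress and serine synthesis genes were highest of run 1 in lymphoma 9, and 17 of them highest of all 11. Stc2, a secreted glycoprotein of the stress response, was 0.127, 0.331, 83.1, 5.63 and 0.738 CPM in lymphomas 7 to 11 (run 1) and 4.33, 10.5, 4.94, 0.607, 22 and 9.66 CPM in lymphomas 1 to 6 (run 2). Asns, asparagine synthetase, was 174, 111, 398, 85.6 and 41.8 CPM in lymphomas 7 to 11 (run 1) and 37.1, 59.2, 72.7, 19.4, 151 and 6.95 CPM in lymphomas 1 to 6 (run 2). Lymphoma 9 led both, followed by lymphoma 5 for Stc2 and by lymphomas 7 and 5 for Asns. Trib3, Atf5, Pycr1 and Chac1 completed the 6 of 18 members in the top 10% by SD (10% of all genes; median SD of the list 0.703), at 64.5, 552, 56.2 and 29.6 CPM in lymphoma 9 against medians over the 11 of 3.31, 86.6, 5.79 and 3.79 CPM. Lymphoma 5 was highest of run 2 for 16 of the 18. Without lymphoma 9, 4 members were in the top 10% by SD. In the same lymphoma Bach2, a repressor of plasma cell differentiation, and Bank1, a B cell scaffold protein, both stood at 1.46 CPM, against medians of 50.2 and 51.9 CPM. Ccl5, a chemokine of NK and T cells, reached 62.7 CPM and Cd8b1 78.7 CPM there. Ccl5 was the only NK cell marker averaging at least 5 CPM, and any part of NK or T cells in these values was not tested.

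Genes that mark mature B cell stages were among the most variable lists. Naive and recirculating B cells carry homing receptors under the factor KLF2, marginal zone and B-1 cells form innate-like pools, and memory cells persist after the germinal centre. Of these, the top 10% by SD held 8 of 14 follicular and naive genes (median SD 1.56), 7 of 8 memory genes (1.45) and 9 of 15 marginal zone and B-1 genes (1.62). These counts cover genes averaging at least 5 CPM. Only 8 of 14 measured memory genes did, and a limit on the mean favours genes high in a few lymphomas. In the T cell sufficient lymphomas, which played no part in that limit, the median SDs of the same genes were 1.07, 0.849 and 1.06. In the test of spread given further below, no gene of these lists passed. By that test, 9 of 15 follicular and naive genes and 9 of 14 memory genes deviated more in the deficient group. Of marginal zone and B-1 genes 7 of 15 did. The median differences were 0.20, 0.20 and -0.03, against -0.03 over all genes. Klf2 was 207, 58.2, 65.3, 135 and 68.4 CPM in lymphomas 7 to 11 (run 1) and 334, 129, 33.9, 30.4, 52.7 and 1.66 CPM in lymphomas 1 to 6 (run 2). S1pr1, the receptor by which lymphocytes leave tissue and a KLF2 target, was 69.1, 10.8, 6.68, 70.1 and 4.78 CPM in lymphomas 7 to 11 (run 1) and 97.3, 69.1, 10.9, 10.2, 24.3 and 0.83 CPM in lymphomas 1 to 6 (run 2). Lymphomas 1, 2, 7 and 10 were the 4 highest for both, and lymphoma 6 was lowest. Cr2, the complement receptor CD21, was 39.98, 31.6, 28.6 and 28.2 CPM in lymphomas 1, 2, 10 and 6 and at most 12 CPM in the other 7, so it did not share the low value of Klf2 in lymphoma 6. Fcer2a, the IgE receptor CD23, was high in other lymphomas, 46.3, 32.1 and 18.5 CPM in 9, 6 and 3.

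Among marginal zone and B-1 genes, Cd36, a scavenger receptor, ranged from 1.42 to 269 CPM (median 62.1) and was highest in lymphoma 5. Plac8 ranged from 11.9 to 1122 CPM (median 322), with lymphomas 1, 10 and 2 highest and lymphomas 9 and 6 lowest. Bhlhe41, a transcription factor needed by B-1 cells and also a memory list gene, was 101, 2.4, 51.6, 17.1 and 108 CPM in lymphomas 7 to 11 (run 1) and 50.7, 16.9, 9.73, 10.7, 43.7 and 0.175 CPM in lymphomas 1 to 6 (run 2), highest in lymphomas 11 and 7 and lowest in lymphoma 6. Cd5, the classical B-1 marker, was at most 23.5 CPM. Among memory genes, Hhex, a homeobox factor, was 28.8, 22.4, 17.7 and 16.2 CPM in lymphomas 1, 2, 7 and 10 and at most 2.12 CPM in the other 7, while Nt5e, the surface enzyme CD73, was lowest in lymphomas 10, 2 and 1 (1.5, 5.26 and 9.47 CPM) and above 40 CPM in the rest. The members of the memory list did not share an order. Zbtb32 ranged from 9.26 to 512 CPM (median 135).

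Lymphoma 6 had the lowest scores for memory and marginal zone genes. Over the lists, its mean run-centred log2 CPM was -2.13 for memory genes, -1.68 for marginal zone and B-1 genes and 0.67 for B cell identity genes. Vim, an intermediate filament protein, was 5.55 CPM there against 70.9 to 581 CPM in the other 10, and Anxa2, a membrane-binding annexin, 4.41 CPM against 36.8 to 406 CPM. Bcl2, the survival gene, was 85.3, 48.4, 76.1, 27.1 and 160.2 CPM in lymphomas 7 to 11 (run 1) and 73.3, 33.7, 76.5, 30.4, 25.9 and 2.14 CPM in lymphomas 1 to 6 (run 2), lowest in lymphoma 6, while its antagonist Bmf was highest there (346 CPM against 17.6 to 124 CPM). Bach2 reached 495 CPM and Foxo1, a factor of early and dark zone B cells, 409.6 CPM, both the highest of the 11. Zap70, a kinase of T cell receptor signalling that B lymphoid tumours can express, was 9.67, 173, 7.67, 26.1 and 235 CPM in lymphomas 7 to 11 (run 1) and 46.2, 30.1, 228, 311, 92.9 and 754 CPM in lymphomas 1 to 6 (run 2), and lymphomas 6, 4, 11, 3 and 8 were the highest. Cd2 was likewise highest in lymphoma 6 (301 CPM), and Cd8b1, a chain of the CD8 coreceptor of T cells, was 38.6 CPM there, 78.7 CPM in lymphoma 9 and at most 2.73 CPM in the other 9. Of 11 T cell signalling genes measured, 5 averaged at least 5 CPM, and all 5 lay above the run mean in lymphoma 6. Cd8b1 reached that average only through lymphomas 6 and 9, so its place above the mean follows from the limit. The 11 measured of 20 summed to between 218 and 1646 CPM in the 11 lymphomas (median 789). In the reference group they summed to between 254 and 885 CPM. Of the defining T cell markers, Cd3e, Cd3g and Cd4 were 5.77, 0.437 and 0.437 CPM in lymphoma 6 and at most 5.77, 6.77 and 7.44 CPM in any lymphoma. The part of T cells in these values was not tested.

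Germinal centre genes differed less as a list (5 of 19 in the top 10% by SD, median SD 0.745 against 1.04 in the T cell sufficient lymphomas). Basp1, a membrane protein gene, was 26.6, 234, 7.96, 339 and 30.3 CPM in lymphomas 7 to 11 (run 1) and 170.1, 374, 196, 78.3, 199.7 and 8.61 CPM in lymphomas 1 to 6 (run 2). Efnb1, an ephrin ligand, was 16.8, 381, 12.3, 35.1 and 201 CPM in lymphomas 7 to 11 (run 1) and 37.3, 45.5, 256, 198, 148 and 38.1 CPM in lymphomas 1 to 6 (run 2). The former was low in lymphomas 6, 7, 9 and 11 and the latter high in lymphomas 8, 3, 11 and 4, so they did not share an order. Ranked by distance from the trend of SD on level, 9 of the 19 were in the top 10%. By SD itself, immediate early genes had 4 of 17 in the top 10% (Atf3, Nr4a1, Fosb and Jun). Nr4a1, which marks antigen receptor signalling, was 10.1, 91.2, 7.78, 17 and 52.6 CPM in lymphomas 7 to 11 (run 1) and 38.7, 17.5, 171, 157, 95.6 and 183 CPM in lymphomas 1 to 6 (run 2), with lymphomas 3, 4 and 6 above 150 CPM. Of the p53 target list 3 of 16 were in the top 10% by SD. Plk2, a kinase, was 88.8, 58.5 and 23.5 CPM in lymphomas 3, 8 and 11 and 0.255 to 16.1 CPM in the others. Cdkn1a, the cell cycle inhibitor p21, was highest in lymphoma 9 (224 CPM, others 9.79 to 91.7 CPM).

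Cell division, MYC and respiratory chain genes had the lowest median SDs of all lists. None of 19 S phase, 20 mitosis, 20 MYC and ribosome assembly or 19 respiratory chain genes were in the top 10% by SD, with median SDs of 0.282, 0.323, 0.341 and 0.197 against 0.310 over all genes. Mki67, a nuclear protein of dividing cells, was 762, 973, 688, 1397 and 829 CPM in lymphomas 7 to 11 (run 1) and 1760.0, 2606, 1752, 2582, 2778 and 1739.5 CPM in lymphomas 1 to 6 (run 2). It was lower in every lymphoma of run 1 than in any of run 2, a difference between runs that the run means remove. Within run 2 lymphoma 6 was lowest and lymphoma 5 highest. Lymphoma 6 was lowest of run 2 for 17 of 20 mitosis genes and 18 of 20 MYC and ribosome genes, and lymphoma 5 was highest for 10 and 16. With Mki67 as a continuous term no gene passed in 11054 (0%; edgeR; 686 at an unadjusted p under 0.05, 0 by limma-voom, 47 by DESeq2), although all 19 mitosis genes and 18 of 19 S phase genes tested had a positive slope. The median slope was 0.46 for mitosis and 0.43 for S phase genes against -0.05 over all genes. Without the run term 1385 genes passed, but the Mki67 term then also carries the difference between runs, so that count is not read as genes moving with Mki67.

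With Myc as the term, 0 genes rose (0%) and 9 fell (0.0814%) by edgeR: Dock5, Limk1, Zswim5, Fam105a, Wipi2, Cd82, Ebf1, Ccdc85c and Rab44. Every one of the 9 was highest in lymphoma 6, the lymphoma with the least Myc (108 CPM). Dock5, a regulator of RAC GTPases, was 31.2 CPM there and at most 3.65 CPM elsewhere (log2 slope -3.68 ± 0.29 SE, edgeR adjusted p = 0.00161). Ebf1, a factor that sets B cell identity, was 83.9, 62.6, 129.6, 106 and 123 CPM in lymphomas 7 to 11 (run 1) and 173, 161, 102, 98.4, 98.5 and 383 CPM in lymphomas 1 to 6 (run 2) (slope -1.46 ± 0.20, edgeR adjusted p = 0.0292). Without lymphoma 6 none of the 9 passed, although they kept their direction and 5 other genes were called. Without lymphomas 2, 3 or 5, 4 of the 9 passed, and 4 passed when adjusted over the 7 terms. DESeq2 called 658 genes and limma-voom 107, each with the 9 among them. Of the MYC and ribosome list 19 of 19 tested slopes were positive (median 0.54, 15 at an unadjusted p under 0.05), and of the B cell identity list 13 of 14 were negative (median -0.65, 7 at an unadjusted p under 0.05).

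Scores of 27 lists, the mean run-centred log2 CPM of their members, were correlated over the 11 lymphomas in 350 pairs (genes held by both lists left out), with 100000 two-sided permutations of lymphomas within runs. A single pair passed adjustment over the 350 by Pearson's r and none by Spearman's rho: the MYC and ribosome score fell as the B cell identity score rose, with Pearson r = -0.944 (permutation p = 5e-05, adjusted 0.0175) and Spearman rho = -0.936 (permutation p = 0.00023, adjusted 0.0525). The B cell identity score was 0.67 in lymphoma 6 and 0.41 in lymphoma 11 and -0.42 and -0.36 in lymphomas 7 and 5. The MYC and ribosome score was -0.60 and -0.19 in the first pair and 0.39 and 0.47 in the second. Without lymphomas 6 and 5, the farthest from the median of the MYC and ribosome score, r was -0.890. Within run 2 (6 lymphomas) r was -0.966. Run 1 holds 5 lymphomas, under the minimum of 6 set for a correlation. Its B cell identity scores were -0.42, 0.10, -0.18, 0.08 and 0.41 in lymphomas 7 to 11, and its MYC and ribosome scores 0.39, -0.13, 0.14, -0.20 and -0.19. In each of these 5 the scores had opposite signs. S phase and mitosis scores came next (r = 0.918, permutation p = 0.00044, adjusted 0.0770; rho = 0.946, permutation p = 0.00065, adjusted 0.0648; r = 0.872 without lymphomas 5 and 6).

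**Figure D5:**
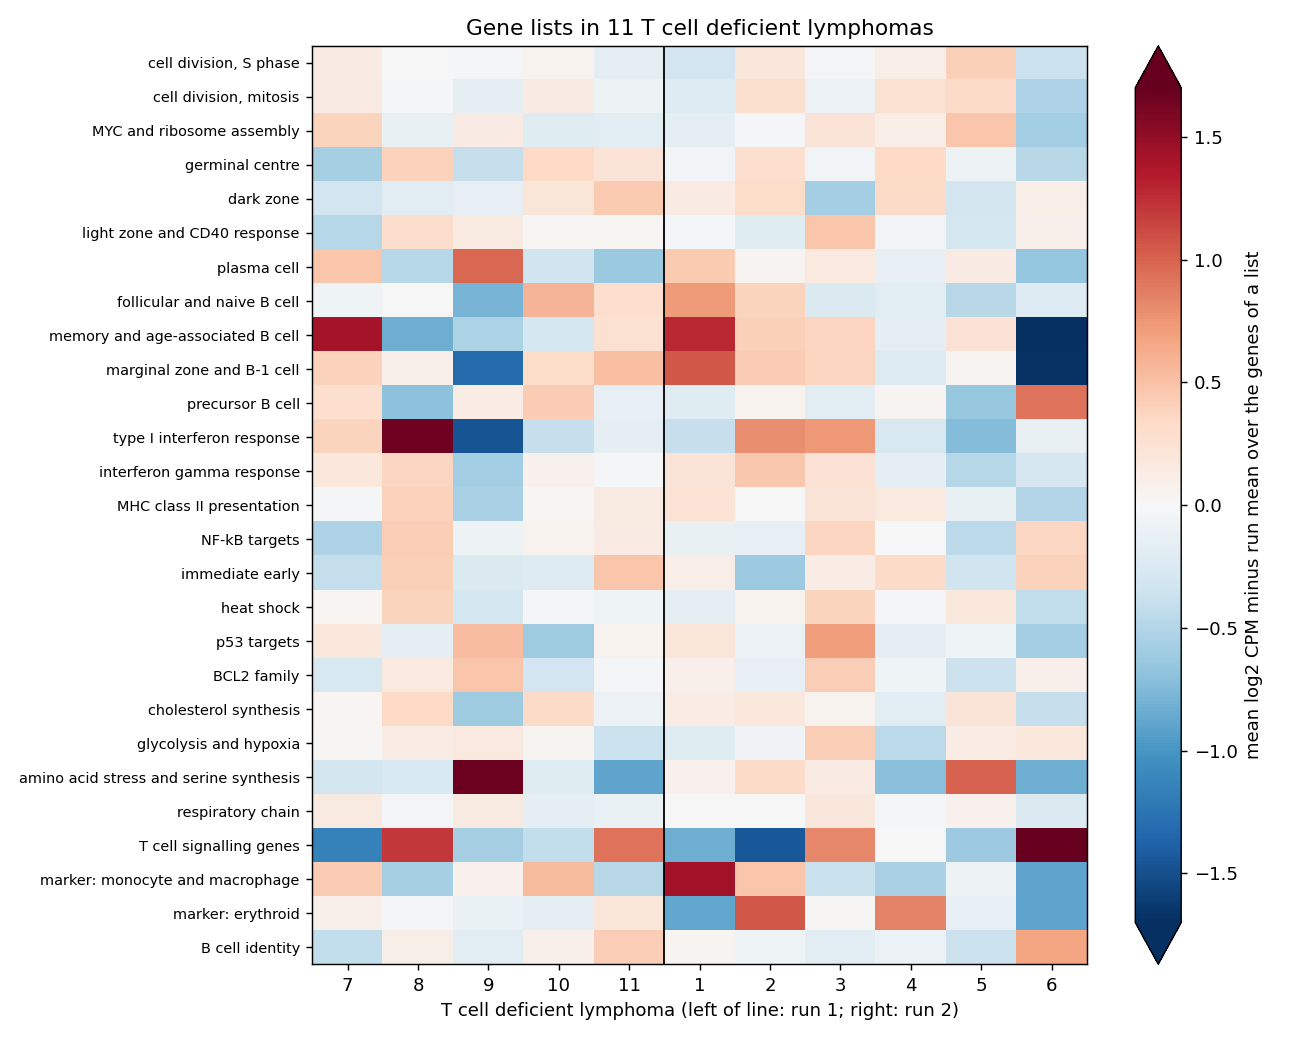
Mean run-centred log2 CPM (colour) of the members of each gene list with at least 5 genes averaging 5 CPM (rows) in the 11 T cell deficient lymphomas (columns). Interferon genes are highest in lymphoma 8, amino acid stress genes in lymphoma 9, and memory and marginal zone genes lowest in lymphoma 6, while cell division, respiratory chain and heat shock rows stay pale.

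In the 11 lymphomas no gene passed with Bcl6, Irf4, Lyz2 or Cd38 as the term (0% each by edgeR over 11054 genes). At an unadjusted p under 0.05 the counts were 595, 1729, 541 and 627. By DESeq2 they were 22, 779, 46 and 52, and limma-voom called 0 for each. Irf4, which drives plasma cell differentiation, was 558, 161, 451, 577 and 453 CPM in lymphomas 7 to 11 (run 1) and 728, 569, 285, 256, 345 and 299 CPM in lymphomas 1 to 6 (run 2), lowest in lymphoma 8. The Irf4 count of edgeR depended on the lymphomas used, with 103 genes without lymphoma 11, 15 without lymphoma 9 and 0 without any other. For Bcl6 1 gene passed without lymphoma 3. Cd38, a surface enzyme whose level falls in germinal centre cells of the mouse, was 76.9, 13.9, 8, 30.2 and 148 CPM in lymphomas 7 to 11 (run 1) and 72.7, 27.9, 26.3, 27.1, 30.4 and 7.56 CPM in lymphomas 1 to 6 (run 2), highest in lymphoma 11. Of 19 germinal centre genes tested with Cd38, 11 had a negative and 8 a positive slope.

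Markers of other cell types were present in all 11 libraries, and in bulk samples fewer cells of a type and less RNA per cell cannot be told apart. The summed level of 20 macrophage markers ran from 453 to 1467 CPM in the 11 lymphomas (median 865) and from 805 to 5266 CPM in the reference group. Lyz2, lysozyme of myeloid cells, was 21.4, 56.7, 39.2, 64.1 and 7.66 CPM in lymphomas 7 to 11 (run 1) and 72.3, 108, 19.1, 3.99, 17.2 and 13.6 CPM in lymphomas 1 to 6 (run 2), high in lymphomas 2, 1, 10 and 8, and C1qb, a complement chain of macrophages, was 49.8, 45.9, 41.3 and 38.2 CPM in lymphomas 7, 10, 1 and 9. Of 16 macrophage markers at the level limit 8 were in the top 10% by SD, and 4 without lymphoma 1, where 15 of the 16 lay above the run mean. That lymphoma also had the highest scores of run 2 for the memory, naive and marginal zone lists, and the part of macrophages in those values was not tested. Neutrophil markers (6 measured of 15) summed to between 2.01 and 178 CPM; S100a9 was 54.5 and 22.6 CPM in lymphomas 7 and 9 and at most 10.03 CPM in the rest. The same 2 lymphomas had the higher Isg15, Oasl1 and Prdm1 values, and the part of neutrophils there was not tested. The erythroid, dendritic cell and stromal marker sums ranged from 281 to 552, 327 to 622 and 30.8 to 167 CPM.

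Finally, the spread of each gene was tested against that of the T cell sufficient lymphomas, by comparing absolute deviations from the mean of run and group over 11020 genes with limma. Only 2 genes varied more among the 11 lymphomas (0.0181%) and 5 varied less (0.0454%); 479 and 1025 did at an unadjusted p under 0.05. Sox5 and Dennd5b were the 2 that varied more. Dennd5b, a regulator of RAB GTPases, was 32, 73.7, 4.42, 3.68 and 66.5 CPM in lymphomas 7 to 11 (run 1) and 6.25, 7.53, 82.8, 66.3, 68 and 93.3 CPM in lymphomas 1 to 6 (run 2). It was low in lymphomas 1, 2, 9 and 10 and above 30 CPM in the other 7, while all 12 reference lymphomas lay at 53.7 to 179 CPM, median 95 (mean deviation 1.82 against 0.45, limma adjusted p = 0.006). For Sox5 the mean deviations were 3.84 and 1.39 (limma adjusted p = 0.0233), with reference levels of 0.455 to 68.6 CPM, median 15.8. Bhlhb9, an X-linked gene, varied less, 25.9 to 62.2 CPM against 0 to 37.9 CPM, median 2.82 (deviations 0.36 and 3.36, limma adjusted p = 0.000744), as did Ptpre, a phosphatase, at 1.65 to 4.89 CPM against 1.63 to 57.5 CPM, median 12.7 (0.25 and 1.66, limma adjusted p = 0.000744). Clstn1, Hsf2 and Ier5l were the others, with limma adjusted p from 0.0234 to 0.0482. With deviations from the median in place of the mean none of the 7 passed. The count moved by over 1.5 times without 16 of the 23 libraries: it was 2, 2, 17, 13, 12, 27, 19 and 13 without T cell deficient lymphomas 1, 2, 3, 4, 5, 6, 7 and 9, and 13, 14, 12, 48, 17, 12, 3 and 19 without T cell sufficient lymphomas 1, 3, 4, 5, 7, 9, 11 and 12. All 7 kept their direction in every one of these fits. Of 25 type I interferon genes tested 23 had the larger deviation in the deficient group and none passed, with a median difference of 0.26 against -0.03 over all genes.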

How the data were processed

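RNA of 24 samples was sequenced, and the deposited table holds 23 columns of counts. Per the file headers, the authors deposited counts and CPM (counts over the column total) for each gene, with log2 fold changes and mean log2 expression, p-values and FDR of their own comparison of the groups, which were not used here. The values show that each listed gene exceeded 1 CPM in at least 7 of 23 libraries. Per the submitters' processing notes, the builds were mm10 and GRCm38 and the package limma. Aligner, annotation, counter and strand setting: not given in the sources used here. Without a stated strand, reads of overlapping and antisense genes cannot be told apart, and the same holds for near-identical gene copies such as Xlr4a and Xlr4b. Classical MHC, mitochondrial and immunoglobulin segment genes were not analysed here, and 19 genes whose identifier and name differ are not named. A few genes are not reported here, and 1 of them is left out of the plot of interferon genes. The column of T cell sufficient lymphoma 4 was matched by its number; whether the column of T cell sufficient lymphoma 1 holds 1 or both of its libraries is not stated.

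Counts were scaled by TMM (edgeR 4.0.16 in R 4.3.3), log2 CPM used a prior count of 2, and the mean of each run was removed within the T cell deficient group. SDs, components, chromosomes and lists used genes averaging at least 5 CPM in the 11 lymphomas. Genes that vary with a named gene were tested on counts after filterByExpr, with run and the run-centred log2 CPM of that gene as terms and robust quasi-likelihood dispersion. The SE of a slope was derived from the slope and its F statistic. The variability test used limma 3.58.1 on absolute deviations. List scores of a pair left out genes that both lists hold, and a pair needed at least 5 genes in each, which gave 350 pairs and 100000 permutations within runs, two-sided. The slope test for Irf7 and the variability test were also run on simulated counts. Those did not model genes switched on in single lymphomas, so they do not check calls that rest on a single lymphoma. Alternatives were RLE scaling, a prior count of 0.5, other filters, DESeq2 1.42.0, limma-voom, no run term, a residual from the trend of SD on level, and each library left out. The members of the group and the gene lists were chosen with earlier results of these data known. Genes were named by rule: the 25 of largest SD, up to 4 of largest SD per list, up to 6 per term and direction, up to 10 per direction of the variability test, 6 per end of a component, up to 4 per lymphoma with a private value, and a fixed set of single genes. All other genes named, such as Isg15, Oasl1, Sdc1, Igj, Hsp90b1, Foxo1, Cd3g, Cd4, Bach2 and Bank1, were chosen after their values were seen. Nothing in the labels says that lymphomas came from separate mice, so p-values measure the spread between these samples. Promoters are from RefSeq (GRCm38.p6), and gene positions are on GRCm38.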

Additional observations from a re-analysis of the deposited data

How the results depend on the processing

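The counts of genes past an adjusted p of 0.05 depended on the tool and on single lymphomas. With DESeq2 they were 47, 658, 22, 779, 306, 46 and 52 for Mki67, Myc, Bcl6, Irf4, Irf7, Lyz2 and Cd38, and limma-voom gave 107 for Myc. Without the run term they were 1385 for Mki67, whose level differed between runs, 78 for Myc, 4 for Irf4 and 15 for Irf7. Adjusted over the 7 terms together, a choice made after seeing the data, 4 remained for Myc and 1 for Irf7. Leaving out 1 lymphoma at a time gave 4 to 10 genes for Myc, 0 to 1 for Bcl6, 0 to 103 for Irf4 and 0 to 47 for Irf7. The variability count was 14 with a prior count of 0.5, 0 with deviations from the median, and 2 to 48 with 1 library left out. The replicate block, with the labels' numbers 1 to 11 as a term, gave 11 genes, 4 of them among the 7. Nothing ties equal numbers together: their correlations across genes ran from -0.245 to 0.275, and 2 of 11 lymphomas correlated best with their own number. Of list counts, those without each lymphoma, added after seeing the data, ran from 10 to 21 for type I interferon and from 4 to 11 for macrophage markers, and germinal centre genes had 9 by residual from the trend on level. Of the 25 genes of largest SD, 20 were shared with a prior count of 0.5 and 21 with run means kept. No value that a setting gave reversed its direction, but without the run term only 7 of the 9 Myc genes and 22 of the 24 Irf7 genes were tested. The cause of these changes was not tested. Depth limits levels under 0.248 CPM.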

Other observations

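Some genes were far out in 1 of the 11 lymphomas. Among the 9754 genes averaging at least 5 CPM, a run-centred value at least 2 (log2) beyond that of the next lymphoma was found 171 times. A gene was counted once for each lymphoma in which it stood apart, and these cases were unevenly spread. A gene high in 1 lymphoma can reach the 5 CPM limit through that lymphoma alone, so the numbers on the high and low sides depend on the limit. Lymphoma 6 held 23 such genes on the high side and 70 on the low side, lymphoma 9 held 6 and 32, and each of the others at most 5 and 7. In lymphoma 6 the high genes included Tmem221 (62.3 CPM), Ccdc85c (137 CPM), Fam105a (85.9 CPM) and Igf1r, the receptor of insulin-like growth factor 1 (135 CPM). The low side of lymphoma 6 included Ckap4 (0.262 CPM), Myadm (0.437 CPM) and S100a11, a calcium-binding S100 protein (0.262 CPM), together with the cytoskeletal Vim and the factor Klf2.

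In lymphoma 9 the high genes were led by Stc2, Ccl5, Prdm1 and Slc7a3, a transporter of basic amino acids (119 CPM), and the low genes included Bank1, Bach2, Cd200, an inhibitory surface protein (0.73 CPM), and Cblb, a ubiquitin ligase that limits receptor signalling (2.34 CPM). Smaller sets marked other lymphomas. Lymphoma 10 was furthest above the rest of the group, relative to its run, for Ppp2r2c, Prdm6 (16.5 CPM), Pitpnm3 (35.9 CPM) and Smoc1 (96.6 CPM). In lymphoma 11 the high genes included the adhesion molecule Dscam (41.2 CPM), the sodium channel gene Scn8a (43.8 CPM), the microtubule protein gene Map2 (42.7 CPM) and the transcription factor Foxf2 (64.2 CPM). Lymphoma 8 was high for Gnb4 (56.5 CPM), Ms4a4c (135 CPM) and C2, a complement protease (72.8 CPM). Lymphoma 7 was high for Tnfsf15, a TNF family cytokine (93.1 CPM), and lymphoma 3 for the peptide transporter Slc15a2 (73.9 CPM). These values describe single libraries and have no replicate check.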
